A study of Homo sapiens with 15 samples.

Results

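Knockdown of both chromatin remodelling ATPases, BRG1 and BRM, was set against a non-silencing control in HepG2, an established human liver cancer cell line. The comparison takes in the 4 libraries labelled Double and the 4 labelled NS, which are 8 of the 15 RNA-seq libraries of the series. All 35012 gene symbols of the count table entered, and 14621 of them had enough counts to be tested. The study also holds 4 libraries with the BRG1 hairpin alone and 3 with the BRM hairpin alone, which serve here to show where Double differs. In every group, NS included, short hairpin RNAs came by lentivirus with polybrene at 8 µg/mL, infected cells were kept by puromycin, and RNA was taken on day 5. Each library is thus a bulk of infected cells, and each group carries a single hairpin label. The labels say neither how the hairpins were combined in Double nor whether replicates were separate cultures, so the p-values measure only the spread between these libraries, which may be technical.

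SMARCA4 encodes BRG1 and SMARCA2 encodes BRM. These paralogs are the motor subunits of the SWI/SNF (BAF) complexes, which use ATP to slide or evict nucleosomes at promoters and enhancers. A complex carries a single motor, so a cell that loses BRG1 can keep SWI/SNF activity through BRM, and the reverse. In the liver the complexes work beside hepatocyte transcription factors at genes for plasma proteins, lipid handling and drug metabolism.

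Total estimated counts were 13885573 to 27187991 in the Double libraries and 11500149 to 22467399 in the NS libraries. In both groups the replicates 1-2 were unlike the replicates 3-4. The mitochondrial share of counts was 6.65 to 8.33% in Double 1 and 2 and 1.79 to 3.46% in Double 3 and 4, against 8.15 to 8.26% in NS 1 and 2 and 1.33 to 1.5% in NS 3 and 4. Among the 8 libraries the first principal component, with 44.4% of the variance, separated Double from NS, and the second, with 32.6%, separated the numbers 1 and 2 from 3 and 4. What same-numbered libraries have in common is not given, so the main effects are also given within replicates 1-2 and within replicates 3-4. All 12 hepatocyte markers were above 1 CPM on average in both groups (CPM, a gene's counts relative to the library total scaled by TMM). Their summed level was 12650 to 27670 CPM in Double and 27200 to 40430 CPM in NS libraries. Abundant genes weigh most in this sum, with SERPINA1 the highest in Double (mean 6346 CPM) and APOB in NS (mean 9783 CPM). By the test used below, 4 of the 12 fell and 0 rose. In bulk RNA, fewer cells of a type and less RNA per cell cannot be told apart.

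Both targeted genes were low in every Double library. SMARCA4 (chromosome 19, 10960825 to 11079426 on GRCh38, plus strand, protein-coding) held 43.3, 52.0, 39.0 and 50.5 CPM in Double libraries 1 to 4, against 312, 297, 310.3 and 310.1 CPM in NS libraries 1 to 4. It fell by 2.73 ± 0.17 (log2 units, with its SE; edgeR's quasi-likelihood test with Benjamini-Hochberg adjustment, adjusted p = 4.57e-07), by 2.67 within replicates 1-2 and 2.79 within 3-4. SMARCA2 (chromosome 9, 1980290 to 2193624, plus strand, protein-coding) held 2.79, 2.23, 2.85 and 2.40 CPM in Double, against 41.2, 33.1, 41.1 and 41.4 CPM in NS. It fell by 3.93 ± 0.26 (edgeR, adjusted p = 6.54e-07), by 3.88 and 3.96 within the sets. Against the single knockdowns, SMARCA4 was higher in Double than with the BRG1 hairpin alone by 0.73 ± 0.16 (adjusted p = 0.00857), while SMARCA2 in Double minus BRM came to −0.74 ± 0.26 and did not pass (adjusted p = 0.0634). Without BRM replicate 1 that difference was −0.29 (adjusted p = 0.372), while it was called without BRM replicate 2 (−1.01, adjusted p = 0.0123), with the replicate block (adjusted p = 0.0432), with a term for the set (adjusted p = 0.0423) and by DESeq2 (adjusted p = 0.0416).

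**Figure D1:**
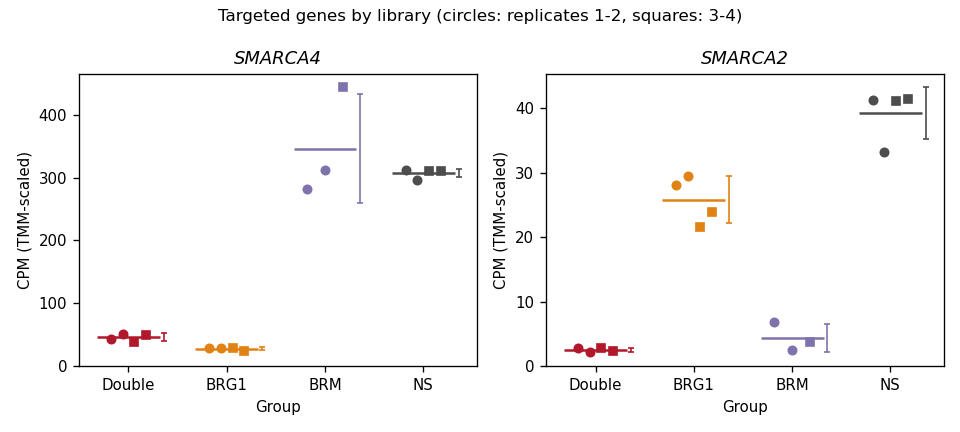
Level of SMARCA4 and SMARCA2 in CPM in each library of the Double, BRG1, BRM and NS groups. Horizontal lines are group means and bars are 1 SD; the 4 Double libraries lie at 39.0 to 52.0 CPM for SMARCA4 and 2.23 to 2.85 CPM for SMARCA2, below all 4 NS libraries of both genes.

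In Double, 3165 of the 14621 genes tested changed: 1718 rose and 1447 fell in Double against NS (edgeR, adjusted p under 0.05), which is 11.8 and 9.9% of the genes tested and 21.6% together. An unadjusted p under 0.05 was reached by 4922. Changes were often large: 939 of the risen and 868 of the fallen genes moved at least 2-fold, together 57.1% of the calls, and 114 rose and 112 fell at least 8-fold. All 4 Double libraries lay above all 4 NS libraries for 1585 of the 1718 risen genes, an order that 14.5% of all tested genes showed, and below them for 1343 of the 1447 fallen genes, an order that 12.8% showed. The median change over all genes tested was 0.02 on the log2 scale. With the replicate number as a block, since same-numbered Double and NS libraries deviated together, 5200 genes were called, 3161 of the 3165 among them. The authors' deposited table does not name its control group and was read as Double against NS because its directions match these counts, so its directions are no separate check. It calls 3155 of the 3165, among 3823 of its 17142 genes with an adjusted p.

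The changes were also estimated within each set. Of the 3165 genes, 3160 had the same sign within replicates 1-2 and within 3-4, a count that the pooled test favours because it chose them. Of the genes called within each set on its own, 2799 had the same sign in both and 78 the opposite. Within 1-2 alone 4462 genes (30.5%) were called, and within 3-4 alone 5286 (36.2%). Both sets called 2334 of the 3165 in the pooled direction, and neither called 27. The size of the change differed between the sets for 542 genes (3.71% of those tested), 375 with the higher change in 3-4 and 167 with the lower, and 177 of these were among the 3165. These counts depended on single libraries. The 542 became 160 without Double 1 or NS 4, 195 without Double 2 or NS 2, 228 without NS 1, 298 without NS 3 and 1015 without Double 4. The 4462 became 2388 without Double 1, 2696 without Double 2, 2586 without NS 1 and 2477 without NS 2, each of which leaves 1 library in its arm of the set, assumed to vary like the others. The 5286 became 3321 without NS 4.

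**Figure D2:**
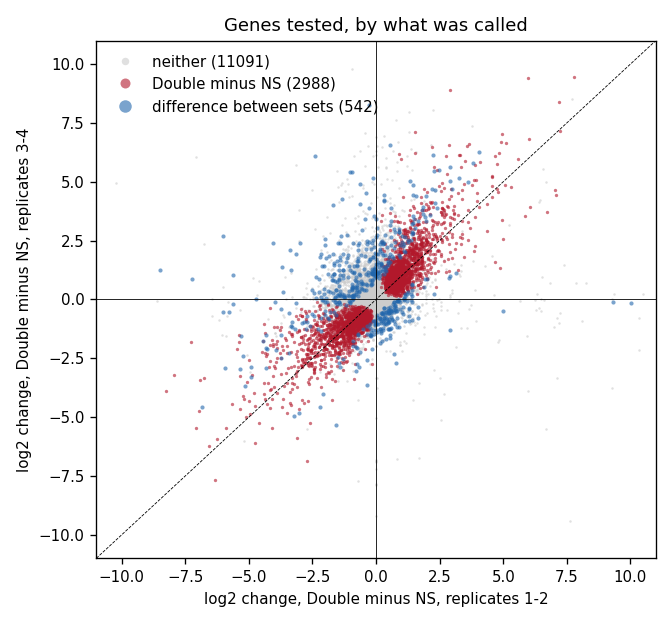
Log2 change of Double minus NS for each gene tested, within replicates 1-2 (horizontal axis) and within replicates 3-4 (vertical axis), coloured by what was called; the 542 genes called for a difference between the sets are drawn over the others, and the dashed line marks equal changes. Genes called for Double minus NS have the same sign in both sets apart from 5.

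Double differed from BRG1 alone at 1582 genes (10.8% of those tested; 600 higher, 982 lower) and from BRM alone at 2787 genes (19.1%; 1363 higher, 1424 lower). The first count became 946 without Double 1, 934 without Double 2, 1038 without BRG1 replicate 1 and 1014 without BRG1 replicate 2. Of the 3165 genes called against NS, 771 also differed from BRG1, 1439 differed from BRM and 1263 were not called against either. In all, 175 moved the same way against NS, against BRG1 and against BRM, 77 up and 98 down. All 3 knockdowns were compared with the same NS libraries, so their changes against NS are given side by side and are not independent.

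The 15 largest increases were at genes below 5 CPM in every NS library. BMP6, a ligand that acts on hepcidin and iron balance in the liver, held 23.6, 20.5, 39.6 and 22.3 CPM in Double, against 0.583, 0.721, 0.184 and 0.372 CPM in NS. It rose by 5.80 ± 0.59 on the log2 scale (edgeR, adjusted p = 1.56e-05). BMP6 changed by 6.08 with the BRG1 hairpin and by 0.19 with the BRM hairpin (adjusted p = 0.905). Double 3 was the highest library of BMP6, and the groups did not overlap, which the rule required. TSGA10IP had 338 counts over the Double and 2 over the NS libraries, a ratio of 140 (exact binomial 95% interval 38.4 to 1160, counting error only).

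ANGPTL4, a secreted inhibitor of lipoprotein lipase, went beyond both single knockdowns. It held 60.0, 59.1, 58.0 and 83.7 CPM in Double, against 4.76, 3.604, 1.57 and 1.07 CPM in NS, and rose by 4.56 ± 0.37 (edgeR, adjusted p = 3.41e-06). The changes were 2.58 with BRG1 and 2.92 with BRM alone, and Double exceeded BRG1 by 1.98 ± 0.33 (adjusted p = 0.00146) and BRM by 1.64 ± 0.36 (adjusted p = 0.00509). All NS libraries of ANGPTL4 were under 5 CPM, with lower values in NS 3 and 4, and the change was larger in replicates 3-4 (3.81 within 1-2, 5.80 within 3-4, adjusted p of the difference 0.00869, not called without NS 1 or NS 4). KLF2, a Krüppel-like transcription factor, also went beyond both single knockdowns, with near-equal changes in both sets. It held 11.6, 13.6, 8.68 and 9.84 CPM in Double, against 0.437, 0.480, 0.461 and 0.279 CPM in NS (4.73 ± 0.32, adjusted p = 6.54e-07), and exceeded BRG1 by 1.60 ± 0.26 (adjusted p = 0.00131) and BRM by 3.14 ± 0.32 (adjusted p = 1.44e-05). The carboxylesterase pseudogene CES1P1, whose reads can be shared with its coding relatives, also exceeded both (4.49 ± 0.32 against NS, 1.52 against BRG1, 2.74 against BRM).

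GFPT2, which feeds glucose into hexosamine synthesis, rose less in Double than with the BRG1 hairpin alone. It held 16.7, 15.5, 36.4 and 27.23 CPM in Double, against 0.825, 0.480, 1.48 and 0.929 CPM in NS (4.71 ± 0.35, adjusted p = 1.61e-06), while the BRG1 change was 6.27 and Double minus BRG1 was −1.56 ± 0.29 (adjusted p = 0.00312). Other increases among the 15 largest were ARHGAP31, a GTPase-activating protein (5.89 ± 0.62), the serine protease PRSS22 (5.36 ± 0.48), the calcium-gated potassium channel KCNN4 (4.96 ± 0.40), the matrix protein THSD4 (4.92 ± 0.51), the chemokine CCL5 (4.92 ± 0.41), carbonic anhydrase CA2 (4.82 ± 0.46), the leukocyte integrin chain ITGAL (4.42 ± 0.85) and the adenosine receptor ADORA1 (4.30 ± 0.45). ADORA1 rose more in replicates 3-4 than in 1-2 (5.62 against 2.92, adjusted p of the difference 0.00395). CA2 exceeded BRG1 by 1.46 ± 0.37 (adjusted p = 0.0213; not called without Double 1, Double 3, BRG1 replicate 3 or BRG1 replicate 4), and ITGAL, with 19.5, 20.4, 11.3 and 45.1 CPM in Double, was not called against either single knockdown.

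The largest decreases by the same rule included genes of secreted and extracellular proteins. PLA2G2A, a secreted phospholipase, held 0.437, 0.270, 0.702 and 0.744 CPM in Double, against 45.8, 38.3, 15.5 and 18.9 CPM in NS. It fell by 5.73 ± 0.42 (edgeR, adjusted p = 1.43e-06), beside changes of −3.05 with BRG1 and −5.96 with BRM, and its level in Double differed from BRG1 (adjusted p = 0.000743) but was not called against BRM (0.22 ± 0.48, adjusted p = 0.806). PLA2G2A was lower in every Double library than in any NS library, which the rule required.

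RELN and AZGP1 fell beyond either single knockdown. RELN, the secreted matrix protein reelin, held 32.9, 30.4, 39.5 and 52.7 CPM in Double, against 701, 547, 1064 and 929 CPM in NS. It fell by 4.38 ± 0.38 (adjusted p = 5.51e-06; −2.64 with BRG1, −2.52 with BRM), and Double minus BRG1 was −1.74 ± 0.34 (adjusted p = 0.00468) and Double minus BRM −1.86 ± 0.36 (adjusted p = 0.00231). AZGP1, a zinc-binding plasma glycoprotein, held 1.48, 1.96, 2.002 and 1.95 CPM in Double, against 56.6, 51.7, 40.6 and 38.4 CPM in NS (−4.66 ± 0.22, adjusted p = 2.63e-08), with −1.72 against BRG1 (adjusted p = 0.000182) and −2.50 against BRM (adjusted p = 4.50e-06). The Double libraries of AZGP1 lay within 1.48 to 2.002 CPM, and its SE was the smallest of the 15 largest decreases.

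SERPINA3, an acute-phase protease inhibitor, differed in level between the library sets as well as between groups. It held 10.1, 14.9, 21.9 and 52.6 CPM in Double, against 177, 142, 856 and 898 CPM in NS (−4.38 ± 1.04, adjusted p = 0.00765), and the symbol AL049839.2 overlaps it on the same strand, so reads of both can be mixed. AKR1B10, an aldo-keto reductase raised in many liver cancers, held 3.17, 2.56, 9.94 and 7.15 CPM in Double, against 94.7, 110.0, 114 and 106 CPM in NS (−4.20 ± 0.57, adjusted p = 0.000151). Other large decreases were the kidney cadherin CDH16 (−5.31 ± 0.81), the erythroid transcription factor NFE2 (−5.04 ± 1.08), C1orf116 (−4.83 ± 0.79), complement component C7 (−4.79 ± 0.48), the endoplasmic reticulum protein ERP27 (−4.66 ± 0.59), ANGPTL1 (−4.56 ± 0.66), the matrix protein FREM1 (−4.47 ± 0.69), the enamel-associated protein ODAM (−4.31 ± 0.43) and the surface protein VSIG2 (−4.14 ± 0.66). ANGPTL1 lies inside RALGPS2 on the opposite strand, and the strand setting of the counting is not given in the sources used here.

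**Figure D3:**
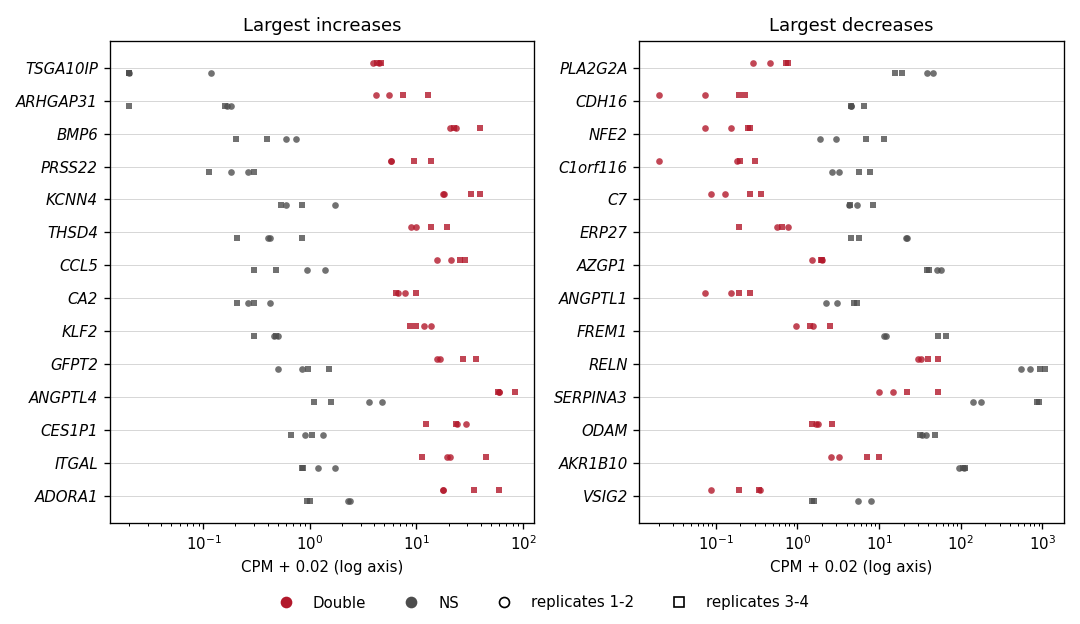
Level in CPM plus 0.02 (log axis) in each Double and NS library for genes among the 15 largest increases and the 15 largest decreases that met the rule for named genes. Each point is 1 library; Double and NS libraries do not overlap for any gene drawn, which the rule required.

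AFP, SERPINA4, LIPC and C4BPA, liver genes named after their values were seen, fell by 1.76 to 3.81 on the log2 scale. AFP, the fetal serum protein that HepG2 cells secrete, held 1201, 1193, 799 and 1226 CPM in Double, against 2438, 2608, 5284 and 5218 CPM in NS (−1.81 ± 0.42, adjusted p = 0.00633). SERPINA4, which inhibits kallikrein, held 1.42, 1.28, 1.26 and 3.89 CPM in Double, against 29.1, 23.0, 32.6 and 25.2 CPM in NS (−3.81 ± 0.59, adjusted p = 0.000397). LIPC, the hepatic lipase, held 11.6, 12.9, 8.36 and 11.2 CPM in Double, against 46.2, 50.5, 28.7 and 24.2 CPM in NS (−1.76 ± 0.25, adjusted p = 0.000169). None of these overlapped between the groups. C4BPA, the alpha chain of the complement inhibitor C4b-binding protein, held 6.34, 5.80, 3.34 and 5.55 CPM in Double, against 21.8, 20.1, 31.3 and 30.3 CPM in NS (−2.30 ± 0.31, adjusted p = 0.000131). HNF4A, a nuclear receptor that drives liver genes, held 229 to 428 CPM in Double and 239 to 329.8 CPM in NS (0.08 ± 0.27, adjusted p = 0.878), and its sign turned to −0.20 without Double 4 and −0.03 without NS 2.

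Many genes for secreted liver proteins fell. For the lists, the shares of all tested genes without the replicate block are 11.8% higher and 9.9% lower. Counts with the block or without 1 library are given where they move by over 1.5 times. The block has a background of its own: 2823 of the 14621 genes tested rose and 2377 fell with it. List counts with the block are to be read beside these totals and not beside 11.8% and 9.9%. Of 33 plasma carrier and secreted protein genes 14 fell and 1 rose (3 rose with the block), with a median change of −0.77 beside 0.02 over all genes tested. The list's median was −1.53 in BRG1 and 1.12 in BRM, each against the same NS libraries. TTR, the thyroxine carrier transthyretin, held 14.2, 15.8, 10.2 and 18.2 CPM in Double, against 129, 126, 118 and 89.6 CPM in NS, and fell beyond both single knockdowns (−2.99 ± 0.21 against NS, adjusted p = 1.15e-06; −1.57 against BRG1, adjusted p = 0.000344; −1.43 against BRM, adjusted p = 0.000346). ITIH3, an inter-alpha-trypsin inhibitor chain, moved in opposite directions in the single knockdowns, −2.57 with BRG1 and 1.92 with BRM. In Double it held 11.8, 11.9, 14.1 and 21.6 CPM, against 61.3, 54.5, 86.6 and 80.9 CPM in NS (−2.25 ± 0.35, adjusted p = 0.000362), and Double minus BRG1 was 0.32 ± 0.33 (adjusted p = 0.653). SERPINF1, an anti-angiogenic serpin, fell by 2.40 ± 0.27, and PON3, a lactonase carried on lipoproteins, rose by 0.87 ± 0.23 (not called without Double 1 or Double 2; named after its value was seen).

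The complement list held no riser. Of its 21 tested genes 11 fell, with a median of −1.47, and within replicates 1-2 and 3-4 alone 15 fell in each. CD46, which protects cells from complement, held 57.3, 53.6, 58.4 and 38.1 CPM in Double, against 129, 130.5, 166 and 182 CPM in NS (−1.55 ± 0.20, adjusted p = 7.99e-05). MASP1, a protease of the lectin pathway, rose with the BRM hairpin alone (1.31) and fell in Double by 2.42 ± 0.37 (adjusted p = 0.000346), lower than in either single knockdown (−1.26 against BRG1, adjusted p = 0.0376, not called without Double 1, 2 or 3 or BRG1 replicate 2 or 4; −3.73 against BRM, adjusted p = 2.40e-05). Of 21 coagulation genes 5 fell and 2 rose (3 fell without Double 3, and 1 rose without Double 1, Double 2, NS 2, NS 3 or NS 4; median −0.87). Factor V (F5) held 86.1, 88.0, 71.9 and 94.6 CPM in Double, against 218, 171, 217 and 209 CPM in NS, a fall of 1.26 ± 0.15 beside −1.23 with BRG1 and 0.88 with BRM. TFPI, the inhibitor of the tissue factor pathway, fell by 1.04 ± 0.18 (adjusted p = 0.000749), beside −1.56 with BRM.

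Many genes of lipoprotein, bile and drug handling fell as well. The apolipoprotein list held 8 fallers and 3 risers among 23 genes (5 fallers without Double 1, Double 3 or NS 3; median −1.04). APOA5, which raises the clearance of triglyceride-rich particles, held 2.40, 2.50, 2.42 and 4.75 CPM in Double, against 18.2, 17.4, 26.4 and 17.9 CPM in NS (−2.72 ± 0.39, adjusted p = 0.000214). Of 24 cytochrome P450 and conjugation genes 13 fell and 0 rose (2 rose with the block; median −1.19). CYP3A7, the fetal liver P450, held 0.601, 0.742, 0.843 and 0.515 CPM in Double, against 6.75, 6.57, 10.4 and 6.41 CPM in NS (−3.46 ± 0.36, adjusted p = 1.67e-05). UGT2B7, a glucuronosyltransferase, fell beyond both single knockdowns (−2.37 ± 0.24 against NS, adjusted p = 1.61e-05; −1.06 against BRG1, adjusted p = 0.00979; −1.03 against BRM, adjusted p = 0.0101, not called without BRM replicate 2). Both families have near-identical members among which reads can be divided. ALDH1A1, which makes retinoic acid, fell by 1.5 ± 0.22 in Double but rose with BRM alone (1.42).

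Of 20 bile acid genes 9 fell and 2 rose (1 rose without Double 1, 2 or 4 or NS 1 or 2; median −0.91). The canalicular phospholipid exporter ABCB4 held 4.25 to 6.52 CPM in Double and 10.97 to 18.8 CPM in NS (−1.52 ± 0.19, adjusted p = 9.12e-05), and the basolateral exporter ABCC4 rose by 0.79 ± 0.15 (adjusted p = 0.0015). Of 29 hepatocyte transcription factors and nuclear receptors 8 fell and 1 rose (4 rose with the block; median −0.48). PROX1, a homeobox factor of liver development, held 31.3, 32.6, 31.2 and 47.0 CPM in Double, against 106, 95.1, 106 and 116.1 CPM in NS, and fell beyond both single knockdowns (−1.57 ± 0.16 against NS, adjusted p = 1.46e-05; −0.55 against BRG1, adjusted p = 0.0341, not called without Double 1, 2 or 3 or BRG1 replicate 1, 2 or 4; −0.69 against BRM, adjusted p = 0.00901). ONECUT2 fell by 1.65 ± 0.18, beside −1.45 with BRM and −0.13 with BRG1 (adjusted p = 0.658). PPARA, the receptor that drives fatty acid oxidation, fell by 1.37 ± 0.19, and FOXA2, a pioneer factor named after its value was seen, by 1.27 ± 0.28.

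The list of NRF2 targets and glutathione enzymes held fallers and 1 riser, HMOX1. Of its 33 genes 9 fell and 1 rose (3 rose with the block; median −0.46). Within replicates 1-2 alone 19 fell and within 3-4 alone 12, and the difference between the sets was called for 8, all higher in 3-4. NQO1, a quinone reductase, held 115.8, 122, 178 and 196 CPM in Double, against 621, 637, 741 and 739 CPM in NS (−2.16 ± 0.33, adjusted p = 0.000333). HMOX1, which breaks down haem, held 409, 425, 958 and 775 CPM in Double, against 111, 108, 84.4 and 70.0 CPM in NS, and rose beyond both single knockdowns (2.78 ± 0.29 against NS, adjusted p = 2.04e-05; 2.02 against BRG1, adjusted p = 0.000582; 1.11 against BRM, adjusted p = 0.0193, not called without Double 3 or BRM replicate 1). Its rise was 1.93 within replicates 1-2 and 3.49 within 3-4 (adjusted p of the difference 0.0114; not called without Double 1, Double 2, NS 2 or NS 4).

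Of 28 genes of gluconeogenesis, the urea cycle and amino acid breakdown, 4 fell and 3 rose (5 rose and 8 fell with the replicate block; 1 rose without Double 1 or Double 4), near the background. Its members split within 1 pathway: CPS1, the first enzyme of the urea cycle, held 21.4, 18.9, 15.4 and 21.4 CPM in Double, against 46.7, 40.4, 44.9 and 44.4 CPM in NS (−1.20 ± 0.14, adjusted p = 3.69e-05). NAGS, which makes the activator of CPS1, held 8.80, 7.55, 17.0 and 15.4 CPM in Double, against 2.48, 3.28, 3.87 and 4.42 CPM in NS (1.80 ± 0.32, adjusted p = 0.0012). Of 28 genes of fatty acid and triglyceride synthesis 3 fell and 2 rose (8 fell with the block). Within replicates 1-2 alone 4 fell and 5 rose, with a median of −0.02, and within 3-4 alone 16 fell and 3 rose, with a median of −0.79, and the difference between the sets was called for 7 of the 28, all lower in 3-4. GPAM, the first enzyme of glycerolipid synthesis, fell by 1.67 ± 0.28 and was less reduced than with BRG1 alone (0.96 ± 0.28, adjusted p = 0.039; not called without Double 1, 2 or 4 or BRG1 replicate 1 or 2), and the elongase ELOVL1 rose by 1.34 ± 0.32. Of 26 fatty acid oxidation genes 4 fell and 3 rose. There the BRM hairpin alone had raised SLC25A20, the mitochondrial carnitine carrier, by 2.90, and in Double it rose by 1.07 ± 0.25 (Double minus BRM −1.83, adjusted p = 0.000275).

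Many stress and immediate early genes rose. Of 31 p53 targets 17 rose and 0 fell (1 fell with the block or without Double 3), 54.8% beside the 11.8% of all tested genes, with a median of 0.82. CDKN1A, the cell cycle inhibitor p21, held 298, 285, 653 and 521 CPM in Double, against 186, 180.1, 168 and 183 CPM in NS (1.29 ± 0.25, adjusted p = 0.00202). Its rise was 0.67 within 1-2 and 1.74 within 3-4 (adjusted p of the difference 0.0402; called without Double 4, and not when any other library was left out). TP53I3, a quinone oxidoreductase, held 164, 171, 213 and 168 CPM in Double, against 55.2, 57.4, 45.7 and 37.9 CPM in NS (1.87 ± 0.20), PLK3, a stress kinase, rose by 1.70 ± 0.21, and the antiproliferative gene BTG2 by 1.42 ± 0.19. PLK3 changed by 1.68 with BRG1 and 0.11 with BRM, and BTG2 by 0.51 with BRG1 (adjusted p = 0.0697) and 1.34 with BRM.

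Of 33 AP-1, early growth response and Krüppel-like factor genes 17 rose and 0 fell (2 fell with the replicate block and 1 without Double 1, Double 3 or NS 4), with a median of 1.08. With the BRG1 hairpin alone 21 rose and 0 fell (median 1.27), and with BRM alone 7 rose and 7 fell (median −0.49). Over all 14621 genes tested, 1826 rose and 1458 fell with BRG1 alone, and 1120 rose and 915 fell with BRM alone. Double against BRG1 was called higher for 3 and lower for 6 of the list (median −0.17). JUNB, an AP-1 subunit, held 73.0, 79.3, 134 and 113 CPM in Double, against 13.5, 13.4, 16.2 and 21.1 CPM in NS (2.63 ± 0.24, adjusted p = 8.37e-06), and exceeded BRG1 by 1.10 ± 0.23 (adjusted p = 0.00712). The early response gene IER2 held 105, 93.5, 108 and 114 CPM in Double, against 37.3, 37.3, 36.1 and 46.3 CPM in NS (1.42 ± 0.15). KLF4, named after its value was seen, rose by 2.77 ± 0.38 and KLF11 by 1.69 ± 0.23. Of 22 heat shock chaperones 7 rose and 0 fell (1 fell with the block). HSPA1A, the inducible HSP70, held 496, 578, 577 and 486 CPM in Double, against 186, 155, 160.4 and 190.3 CPM in NS (1.63 ± 0.18, adjusted p = 2.96e-05), whereas the BRG1 hairpin alone gave −0.24 (adjusted p = 0.385). HSPA1B, a near-identical copy that can share reads, rose by 0.73 ± 0.15, and the small chaperone HSPB1 by 1.93 ± 0.29.

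Promoters of 4 genes are printed to show the letters AP-1 factors bind, at genes that rose and at genes that fell. The letters TGANTCA read the same on both strands and were searched in the 250 bases before each RefSeq gene start (GRCh38.p14). They occurred in 2308 of 35116 windows (6.57%). Of the 667 tested genes with a match, 110 rose, 83 fell and 474 were not called. Over all genes tested, with or without a window, 11.8% rose and 9.9% fell. The median change was 0.06 with a match, beside 0.02 over all genes tested. A window existed for 10517 of the 14621 genes tested. PLAUR and EMP1 rose in Double and CXCL8 and LAMA3 fell, and all 4 were chosen after their values were seen. Their 250 bases before the start follow, with each match in capitals. The stretches are chr19:43670170-43670419 on the minus strand for PLAUR and, on the plus strand, chr12:13196476-13196725 for EMP1, chr4:73740319-73740568 for CXCL8 and chr18:23872770-23873019 for LAMA3.
PLAUR: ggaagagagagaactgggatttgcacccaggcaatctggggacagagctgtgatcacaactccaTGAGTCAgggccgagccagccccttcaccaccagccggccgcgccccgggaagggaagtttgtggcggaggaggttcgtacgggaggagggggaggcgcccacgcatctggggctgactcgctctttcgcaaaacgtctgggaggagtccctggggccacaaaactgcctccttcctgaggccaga
EMP1: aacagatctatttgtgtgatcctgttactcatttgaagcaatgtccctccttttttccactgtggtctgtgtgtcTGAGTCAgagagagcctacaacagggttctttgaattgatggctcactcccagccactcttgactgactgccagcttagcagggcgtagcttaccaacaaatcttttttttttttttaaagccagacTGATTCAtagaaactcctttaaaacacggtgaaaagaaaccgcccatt
CXCL8: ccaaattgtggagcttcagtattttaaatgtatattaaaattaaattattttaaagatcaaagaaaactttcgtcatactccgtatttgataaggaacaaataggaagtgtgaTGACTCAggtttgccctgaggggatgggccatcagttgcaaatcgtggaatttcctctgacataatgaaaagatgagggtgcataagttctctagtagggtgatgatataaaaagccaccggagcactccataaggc
LAMA3: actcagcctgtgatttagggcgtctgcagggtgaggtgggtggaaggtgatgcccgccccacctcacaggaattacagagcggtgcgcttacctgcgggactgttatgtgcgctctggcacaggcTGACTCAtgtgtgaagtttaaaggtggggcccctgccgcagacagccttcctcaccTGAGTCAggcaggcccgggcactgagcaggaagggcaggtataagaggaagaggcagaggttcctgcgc
The match begins 186 bases before the start in PLAUR and 137 in CXCL8, and EMP1 and LAMA3 hold 2 matches each. A match describes letters and is no measure of binding. Windows existed for 71.9% of the tested genes, and no gene set was tested over them.

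Chaperones of the endoplasmic reticulum were among the fallers. In the ATF4 and unfolded protein list 11 of 33 genes fell and 3 rose (5 rose with the block, and 1 without Double 3 or NS 2; median −0.53). HSP90B1, the reticulum's HSP90, held 665, 711, 346 and 571 CPM in Double, against 1326, 1187, 1157 and 1313 CPM in NS (−1.12 ± 0.23, adjusted p = 0.00314). The disulphide isomerase PDIA3 fell by 1.16 ± 0.20, SEL1L, a scaffold of protein disposal, by 1.14 ± 0.14, and HSPA5, named after its value was seen, by 1.21 ± 0.26. PPP1R15A, a phosphatase subunit that restarts translation, rose by 1.22 ± 0.21.

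The cell cycle lists had medians below 0, though most of their genes did not pass the test. Of 44 G1/S and replication genes 7 fell and 1 rose (14 fell with the replicate block, and 3 to 9 without 1 library, fewest without Double 3, NS 3 or NS 4), and of 42 G2/M genes 3 fell and 1 rose (6 fell with the block). The medians were −0.35 for G1/S and −0.40 for G2/M, beside 0.02 over all genes tested. All 4 Double libraries lay below all 4 NS libraries for 14 of the 44 and 14 of the 42. That order was shown by 12.8% of all tested genes. Within replicates 3-4 alone 21 of the 44 and 25 of the 42 fell, and within 1-2 alone 9 and 5 did. The difference between the sets was called for 2 of the 44, higher in 3-4, and for 1 of the 42, lower in 3-4. A fall particular to 1 set is thus not shown for most of these genes. MKI67, a proliferation marker, held 114, 102, 52.1 and 129 CPM in Double, against 249, 174, 273 and 273 CPM in NS (−1.28 ± 0.33, adjusted p = 0.0117). TOP2A, a topoisomerase of dividing cells, fell by 1.12 ± 0.25, the G1 kinase CDK6 by 1.26 ± 0.21 and the replication helicase subunit MCM3 by 1.18 ± 0.27. CKS2, a subunit of cyclin-dependent kinases, rose by 0.70 ± 0.19, with 56.9 to 99.6 CPM in Double and 44.7 to 60.8 CPM in NS, and was not called without Double 1, Double 2, Double 3 or NS 3. Double 4 lay inside the NS range of CKS2.

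Protease and surface genes were among the risers. Of 27 metalloprotease and plasminogen activator genes 11 rose and 1 fell (2 fell with the block or without Double 3; median 0.66). PLAUR, the urokinase receptor, held 20.4, 24.3, 50.0 and 33.8 CPM in Double, against 5.05, 4.24, 3.87 and 4.42 CPM in NS (2.87 ± 0.25, adjusted p = 5.51e-06). MMP14, a membrane-bound metalloprotease, held 104, 84.3, 157 and 159.6 CPM in Double, against 22.4, 18.6, 18.7 and 18.96 CPM in NS (2.68 ± 0.24, adjusted p = 6.25e-06). The faller, named after its value was seen, was MMP2, a gelatinase that MMP14 activates, with 2.24, 1.82, 4.04 and 3.66 CPM in Double, against 23.4, 17.1, 9.22 and 8.27 CPM in NS (−2.29 ± 0.39, adjusted p = 0.000756). MMP2 fell more in replicates 1-2 (−3.31) than in 3-4 (−1.17, adjusted p of the difference 0.00588), and its levels in NS 1 and 2 were the higher ones. TIMP1, an inhibitor of these proteases also named after its value was seen, rose by 2.45 ± 0.42.

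Of 36 integrin, laminin and adhesion genes 9 rose and 4 fell (7 fell with the replicate block). Within replicates 1-2 alone 12 rose and 9 fell, with a median of −0.29, and within 3-4 alone 12 rose and 6 fell, with a median of 0.44. The difference between the sets was called for 7 of the 36, all higher in 3-4. CD9, a tetraspanin, held 58.4, 54.5, 130.0 and 64.0 CPM in Double, against 7.18, 10.0, 7.47 and 8.32 CPM in NS (3.22 ± 0.33, adjusted p = 1.61e-05). ITGA5, the alpha chain of the fibronectin receptor, held 24.1, 21.7, 82.7 and 68.7 CPM in Double, against 4.81, 5.29, 2.95 and 2.88 CPM in NS, with a larger rise in replicates 3-4 (4.70) than in 1-2 (2.19, adjusted p of the difference 0.000951). Its partner ITGB1 rose by 1.45 ± 0.20, while fibronectin itself, FN1, fell by 1.07 ± 0.24. EMP1, a membrane protein named after its value was seen, rose by 2.54 ± 0.38 in Double but by 5.35 with BRG1 alone, and Double minus BRG1 was −2.81 ± 0.37 (adjusted p = 0.000349).

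Of 37 TGF-beta response and mesenchymal genes 11 rose and 6 fell (7 rose without Double 3, Double 4, NS 3 or NS 4), and their median was −0.01 within replicates 1-2 and 1.11 within 3-4. SNAI1, a repressor of epithelial genes, held 23.7, 19.02, 38.3 and 27.6 CPM in Double, against 6.46, 6.25, 5.17 and 6.18 CPM in NS (2.17 ± 0.22, adjusted p = 1.60e-05). TGFBR2, the receptor chain that binds TGF-beta, held 83.7, 71.0, 92.4 and 77.7 CPM in Double, against 186, 180.0, 289 and 378 CPM in NS (−1.67 ± 0.24, adjusted p = 0.000191). The TGFBR2 change was −1.67 with BRM and −0.05 with BRG1 (adjusted p = 0.904). LTBP2, a TGF-beta binding matrix protein, rose by 1.86 in 1-2 and 3.93 in 3-4 (adjusted p of the difference 0.00412). Of 27 YAP targets 8 rose and 2 fell (13 rose with the block, and 5 without Double 1, Double 2, Double 3, NS 3 or NS 4). MYOF, a membrane repair protein, rose by 2.41 ± 0.37 in Double and by 4.0 with BRG1 alone, and Double minus BRG1 was −1.60 ± 0.35 (adjusted p = 0.00908). The kinase LATS2 rose by 1.23 ± 0.20 and the co-activator WWTR1 fell by 0.77 ± 0.12.

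Of 34 keratin and junction genes 8 rose and 5 fell (5 rose without Double 3, Double 4 or NS 2). KRT23 held 14.2, 13.8, 14.9 and 18.4 CPM in Double, against 95.7, 86.5, 59.2 and 85.3 CPM in NS and fell beyond both single knockdowns (−2.42 ± 0.21 against NS, adjusted p = 5.69e-06; −2.02 against BRG1, adjusted p = 0.000116; −1.08 against BRM, adjusted p = 0.00304). The tight junction protein CGN rose by 2.61 ± 0.26 and claudin CLDN1 by 1.46 ± 0.27. Of 24 Wnt targets 11 fell and 1 rose (3 rose with the block; median −0.55). LGR5, a receptor that strengthens Wnt signals, held 24.2, 20.2, 21.0 and 19.6 CPM in Double, against 48.8, 50.9, 71.6 and 83.6 CPM in NS (−1.58 ± 0.21, adjusted p = 0.000109), TNFRSF19 fell by 2.08 ± 0.19 and the secreted Wnt inhibitor NOTUM by 1.45 ± 0.26. The riser, NKD2, is itself an inhibitor of Wnt signalling (1.17 ± 0.39, adjusted p = 0.0469; named after its value was seen, and not called when any library but Double 1 was left out). LGR5 overlaps TSPAN8 on the opposite strand, and TSPAN8 fell by 4.11 ± 0.71, with 0 to 0.164 CPM in Double and 1.07 to 1.84 CPM in NS.

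Of 25 NF-kB and chemokine genes 10 rose and 2 fell (6 rose without Double 2; median 0.51). CCL5 held 15.5, 21.2, 28.3 and 25.4 CPM in Double, against 0.922, 1.36, 0.461 and 0.279 CPM in NS, and BIRC3, an inhibitor of apoptosis, held 18.04, 18.8, 22.8 and 11.3 CPM in Double, against 1.75, 2.24, 1.75 and 1.16 CPM in NS. BIRC3 rose by 3.37 ± 0.36 (adjusted p = 2.38e-05) and exceeded BRG1 by 2.09 ± 0.34 (adjusted p = 0.00128). The cytokine LIF rose by 2.10 ± 0.19. The neutrophil chemokine CXCL8 fell, with 0.164, 0.135, 0.562 and 0.286 CPM in Double, against 2.23, 2.96, 4.15 and 4.28 CPM in NS (−3.47 ± 0.51, adjusted p = 0.000275), beside −3.32 with BRM alone. Of 32 interferon response genes 4 rose and 3 fell (6 fell with the block), among them IRF9, a subunit of the interferon-stimulated factor (2.20 ± 0.20).

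Of 34 growth factor and receptor genes 8 rose and 4 fell (8 fell with the block; 5 rose without Double 3 or NS 3, and 2 fell without NS 3 or NS 4), and the difference between the sets was called for 8 of them, 7 higher in 3-4. PDGFA, a platelet-derived growth factor chain, rose in Double (1.87 ± 0.31, adjusted p = 0.000636) and with BRM (2.59), while HBEGF rose by 1.73 ± 0.30 beside 3.07 with BRG1. Of 25 iron and metallothionein genes 4 rose and 3 fell (2 rose without Double 3). MT1A held 16.8, 21.9, 28.9 and 18.1 CPM in Double, against 0.874, 1.04, 1.57 and 1.30 CPM in NS (4.17 ± 0.40, adjusted p = 1.06e-05), and the iron exporter SLC40A1 fell by 2.19 ± 0.57, more in replicates 1-2 (−2.92) than in 3-4 (−0.98, adjusted p of the difference 0.00798, not called without Double 2). Of 32 glycolysis and hypoxia genes 6 rose and 3 fell (7 fell with the block); PFKFB3, which makes an activator of glycolysis, rose by 1.53 ± 0.27 and PDK1, an inhibitor of pyruvate dehydrogenase, fell by 1.66 ± 0.24.

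Housekeeping lists were called less often than all genes, by count and with no test of the difference. Of 56 ribosomal protein genes 4 fell and 0 rose (10 fell with the block, and 1 to 8 without 1 library, the call count moving most without Double 2, Double 3, NS 1, NS 3 or NS 4), of 42 nuclear genes of oxidative phosphorylation 3 fell and 1 rose (4 rose with the block, 0 without Double 2), and of 13 mitochondrially encoded transcripts 0 were called (1 rose with the block). RPL14 stood apart among the ribosomal proteins, with 209, 239, 149 and 189.5 CPM in Double, against 703, 725, 547 and 541 CPM in NS (−1.68 ± 0.19, adjusted p = 3.01e-05).

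**Figure D4:**
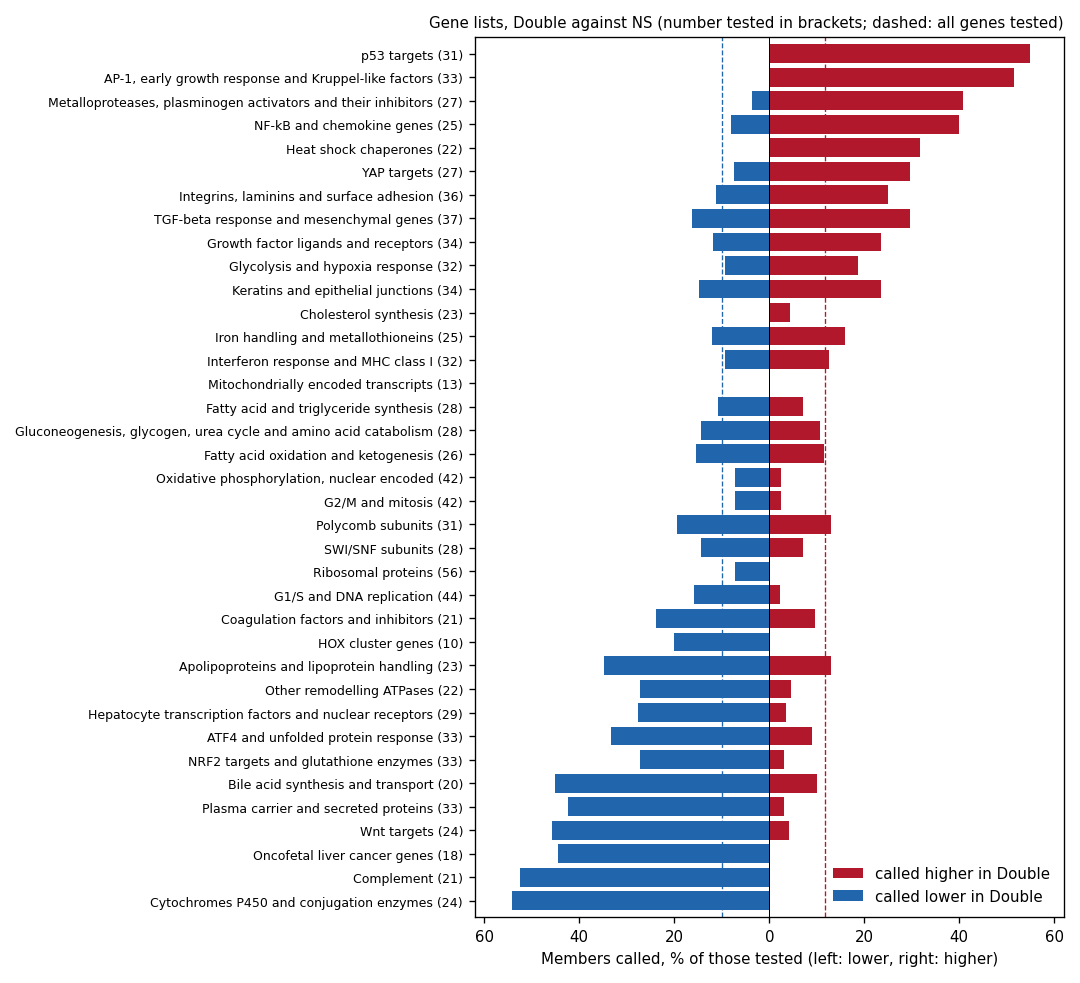
Share of each list's tested members called higher (right) and lower (left) in Double against NS, in percent. Dashed lines are the shares of all genes tested, 11.8% higher and 9.9% lower; p53 targets and AP-1 genes stand at the top of the risers and cytochrome P450 and complement genes at the bottom among the fallers.

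The share of SWI/SNF subunit genes called was near that of all genes. Of 28 SWI/SNF subunit genes tested, 4 fell, the targeted genes among them, and 2 rose (7 fell and 4 rose with the block). The other fallers, named after their values were seen, were the scaffold subunit SMARCC1 (−0.51 ± 0.16, adjusted p = 0.0361) and the DNA-binding subunit ARID1B (−0.48 ± 0.15, adjusted p = 0.0279). BCL7B held 45.0, 51.1, 42.5 and 34.9 CPM in Double, against 29.4, 27.5, 23.9 and 22.4 CPM in NS (0.75 ± 0.15, adjusted p = 0.00248), and its relative BCL7C rose by 1.03 ± 0.21 (adjusted p = 0.00307). Of 22 other remodelling ATPases 6 fell and 1 rose (2 rose with the block). CHD4, the motor of the NuRD complex, held 213, 206, 209 and 272 CPM in Double, against 372, 338, 379.7 and 383 CPM in NS (−0.71 ± 0.14, adjusted p = 0.00249). SMARCA5, the motor of the ISWI complexes, fell by 0.73 ± 0.17, and CHD3, the paralog of CHD4, rose by 0.97 ± 0.27 (named after its value was seen). CHD3 and SMARCC1 were not called without Double 1, Double 2, NS 3 or NS 4, and ARID1B not without Double 3, NS 3 or NS 4. Of 31 Polycomb genes 6 fell and 4 rose (2 rose without Double 2, Double 3 or NS 3). RBBP4, a histone-binding subunit shared with other complexes, held 117, 113, 101 and 104 CPM in Double, against 209.5, 191, 191 and 196 CPM in NS (−0.86 ± 0.11, adjusted p = 0.000126), CBX2 fell by 1.86 ± 0.38 and JARID2 rose by 1.12 ± 0.21. Of 10 HOX genes tested 2 fell, HOXA7 and HOXD1 (2 rose with the block, 1 without NS 2).

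The most abundant changed genes included FN1, ALB and A2M on the lower side and MYH9 and MT2A on the higher. ALB, serum albumin, held 2568, 2437, 1384 and 2451 CPM in Double, against 6375, 6491, 8579 and 8182 CPM in NS (−1.75 ± 0.44, adjusted p = 0.0108), and A2M, a plasma protease trap, held 1062, 1008, 735 and 1168 CPM in Double, against 2972, 2543, 4809 and 4683 CPM in NS (−1.92 ± 0.41, adjusted p = 0.00366). The imprinted gene PEG10 fell by 1.20 ± 0.24 and the oncofetal surface protein GPC3 by 0.86 ± 0.19. Of 18 oncofetal liver cancer genes 8 fell and 0 rose. The myosin heavy chain MYH9 held 1322, 1218, 2025 and 2460 CPM in Double, against 1040, 826, 1074 and 1129 CPM in NS, and rose by 0.79 ± 0.25 (adjusted p = 0.0344), profilin PFN1 by 0.80 ± 0.22, APLP2 by 0.73 ± 0.14 and metallothionein MT2A by 2.14 ± 0.64. Several of these calls rested on single libraries: MYH9 was not called without Double 3, Double 4 or any NS library, PFN1 not without Double 2, Double 3, NS 1 or NS 2, and MT2A not without Double 3, Double 4, NS 1, NS 2 or NS 4.

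The 175 genes that moved beyond both single knockdowns included several at low levels. NRXN2, a neuronal adhesion receptor, held 0.711, 1.35, 1.58 and 1.49 CPM in Double, against 0.243, 0.240, 0.0922 and 0.0930 CPM in NS, and was not called in either single knockdown (−1.78 with BRG1, adjusted p = 0.151; −0.64 with BRM, adjusted p = 0.699). Double exceeded BRG1 by 4.67 ± 0.74 (adjusted p = 0.0011) and BRM by 3.53 ± 0.76 (adjusted p = 0.00471). SLC35F1, a member of a solute carrier family, held 2.73, 2.63, 1.90 and 4.52 CPM in Double, against 0.0971, 0.0801, 0.184 and 0.0930 CPM in NS (3.90 ± 0.47 against BRG1, 2.69 ± 0.50 against BRM). Both were higher in all 4 Double libraries than in any NS library. C15orf48 had 267 counts in Double and 3 in NS, a ratio of 73.7 (exact binomial 95% interval 24.9 to 359, counting error only). The pseudogene TUBB2BP1 (not called without Double 4 or NS 1) and C19orf67 (not without Double 4) completed the 5 largest increases of this kind.

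On the lower side, LAMA3 held 0.328, 0.405, 0.948 and 0.572 CPM in Double, against 6.89, 6.97, 5.44 and 6.13 CPM in NS. The change was −1.17 with BRG1, −1.18 with BRM and −3.44 ± 0.36 in Double (adjusted p = 1.84e-05), with −2.27 ± 0.35 against BRG1 (adjusted p = 0.00097) and −2.27 ± 0.37 against BRM (adjusted p = 0.000627). HOXA7, a homeobox gene, held 0.0547, 0.202, 0.0702 and 0 CPM in Double, against 1.31, 0.961, 0.738 and 0.279 CPM in NS (−3.19 ± 0.66 against BRG1, adjusted p = 0.00605; −2.32 ± 0.71 against BRM, adjusted p = 0.0333, not called without Double 1, 3 or 4 or BRM replicate 2 or 3). The axon guidance ligand SEMA3A had 3 counts in Double and 122 in NS, 49.1 times fewer per total (95% interval 16.4 to 242), and ERP27 and C1orf116 were the other large ones.

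The change of sterol synthesis genes turned with the library set. Of 23 cholesterol synthesis genes 1 rose, PMVK, and 0 fell in the pooled test (1 fell with the replicate block or without Double 4 or NS 2; PMVK was not called without Double 3, Double 4, NS 3 or NS 4). Within replicates 1-2 alone 10 rose and 1 fell, with a median of 0.53, and within 3-4 alone 1 rose and 13 fell, with a median of −0.66. The difference between the sets was called for 13 of the 23, all lower in 3-4, beside 3.71% of all tested genes in either direction. HMGCS1, an early enzyme of the pathway, held 112, 106, 80.4 and 109.7 CPM in Double, against 102, 92.3, 346 and 337 CPM in NS. NS 3 and 4 were far above NS 1 and 2, and the change was 0.16 in 1-2 and −1.85 in 3-4 (difference −2.01 ± 0.32, adjusted p = 0.00412). SQLE held 119, 118, 106 and 142 CPM in Double, against 84.2, 79.3, 304 and 289.8 CPM in NS (difference −1.79 ± 0.22, adjusted p = 0.00122), and CYP51A1, a sterol demethylase, gave −1.45 ± 0.18 (adjusted p = 0.00122). SQLE and CYP51A1 were named after their values were seen.

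COL6A1, KRT7 and COMP differed between the sets in the other direction. COL6A1, a collagen chain named after its values were seen, held 18.9, 18.8, 42.7 and 33.3 CPM in Double, against 28.3, 28.3, 10.98 and 9.85 CPM in NS, with −0.59 in 1-2 and 1.87 in 3-4 (adjusted p of the difference 0.00083). KRT7, a bile duct keratin, held 0.109, 0.202, 1.05 and 0.572 CPM in Double, against 9.13, 6.41, 0.369 and 0.418 CPM in NS (adjusted p of the difference 0.00117). COMP, a cartilage matrix protein, held 0.984, 0.877, 1.72 and 1.26 CPM in Double, against 32.2, 17.2, 1.01 and 1.81 CPM in NS (adjusted p of the difference 0.00126). The pooled call of COMP was lost with the block, with no filter, by limma voom, without any single Double library and without NS 1 or 2. In all 3 the NS libraries 1 and 2 held the high values and NS 3 and 4 the low ones. Of the other genes with the largest differences, SAMD11, USP49 and ANXA1 had the higher change in 3-4, and LSM12P1, POC1B-GALNT4, AC138811.2, RSC1A1 and AL049839.2 the lower. The last 5 are a pseudogene and symbols that overlap other genes on their strand, so the division of shared reads can set their values. LSM12P1 and POC1B-GALNT4 were at 0 in NS 1 and NS 2. The set difference was lost for RSC1A1 without Double 1 or NS 2, for AC138811.2 without Double 1, Double 3, NS 3 or NS 4, and for AL049839.2 without any library but Double 4 and NS 2.

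**Figure D5:**
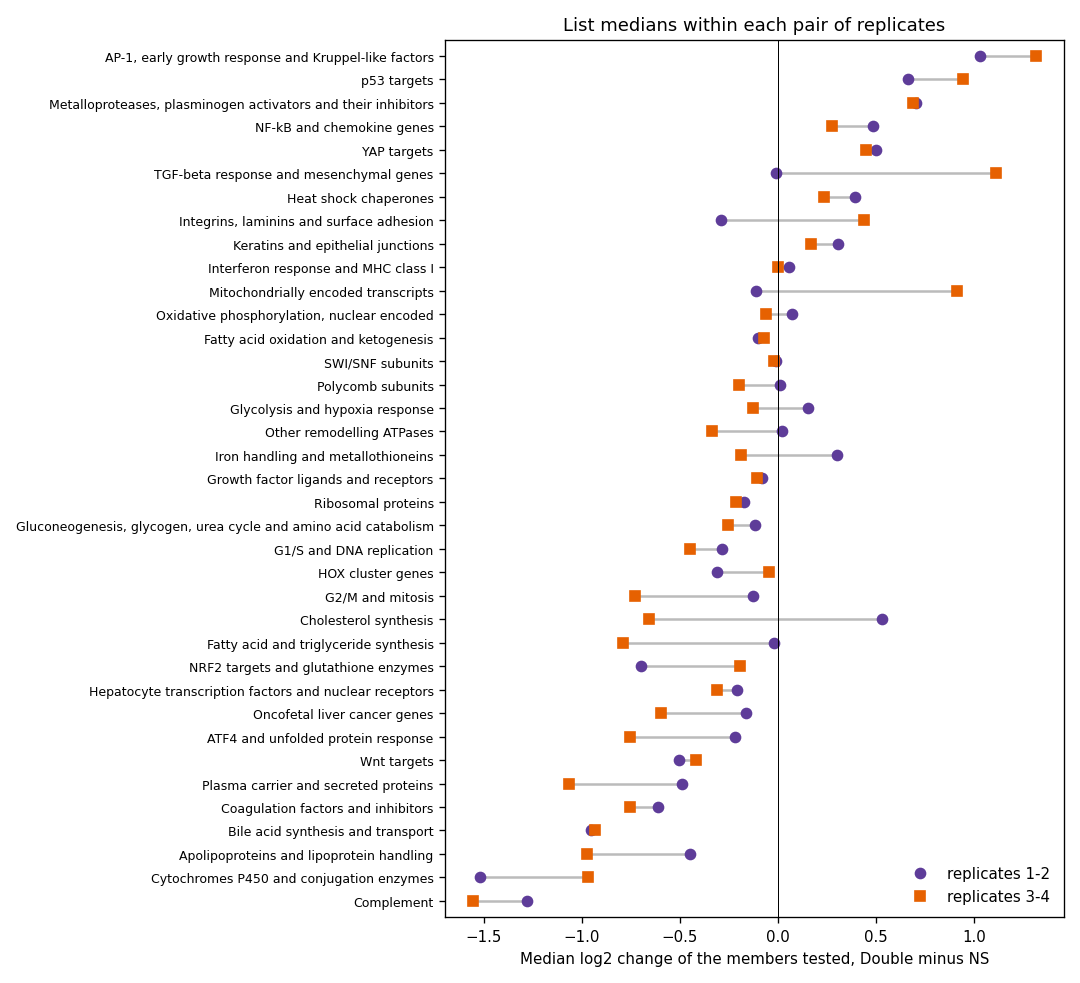
Median log2 change of Double minus NS over the tested members of each list, within replicates 1-2 (circles) and within replicates 3-4 (squares). Cholesterol synthesis has a median above 0 in 1-2 and below 0 in 3-4, and TGF-beta response genes sit near 0 in 1-2 and above 1 in 3-4.

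Markers of other cell types were checked beside these changes. The summed CPM of 8 bile duct markers was 1370 to 2926 in Double and 1632 to 2409 in NS, that of 8 stromal markers 90.1 to 139 in Double and 61.5 to 118 in NS, and that of 7 endothelial markers 3.66 to 4.40 in Double and 5.44 to 6.36 in NS. That of 9 blood markers was 329 to 446 in Double and 483 to 1697 in NS, most of it LYZ, and that of 8 neural markers 301 to 681 in Double and 231 to 384 in NS, most of it TUBB3. Of these markers 4 neural, 2 blood, 2 endothelial, 1 stromal and 1 bile duct ones were at 0 in every Double library. The 3 kidney markers summed to 0.607 to 1.02 CPM in Double and 4.51 to 6.55 CPM in NS, most of it CDH16 in NS. Of the 5 blood markers tested 1 fell, LYZ, and 1 rose, CD68, and of the 7 bile duct markers tested 3 fell and 1 rose. LYZ, the antibacterial enzyme lysozyme, held 389.8, 326, 273 and 256 CPM in Double, against 444, 469, 1497 and 1654 CPM in NS (−1.71 ± 0.43, adjusted p = 0.0111). CD68, a macrophage lysosomal protein, held 51.9, 62.5, 54.1 and 93.3 CPM in Double, against 37.2, 33.4, 28.4 and 40.9 CPM in NS (0.90 ± 0.24, adjusted p = 0.0159; not called without Double 4, NS 2 or NS 3). SPP1, which is osteopontin and 1 of the 3 bile duct markers that fell, held 23.1, 25.3, 79.9 and 37.9 CPM in Double, against 792, 682, 537 and 612 CPM in NS (−3.98 ± 0.46, adjusted p = 3.77e-05). The part of other cell types in these changes was not tested.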

How the data were processed

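RNA-seq libraries of HepG2 cells were compared between the Double and NS groups, with BRG1 and BRM as further groups. The authors deposited kallisto estimated counts per gene symbol, whole numbers for each library, with kallisto, DESeq2 and GRCh38 named per the submitters' processing notes. No version, annotation or strand setting was found in these sources, so reads of overlapping, antisense and near-identical genes may be divided between symbols. The authors' deposited table for the double knockdown holds a mean normalized signal, a log2 fold change, its standard error, a Wald score and p-values, per the file headers. It does not name its control group.

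All 15 libraries entered 1 fit in edgeR 4.0.16 (R 4.3.3) with TMM scaling, filterByExpr and the robust quasi-likelihood test, and genes with a Benjamini-Hochberg adjusted p under 0.05 were called. The within-set changes came from a fit with a mean per group and replicate set. CPM in the report uses totals over the tested genes, while marker sums use totals over all genes. Alternatives were a replicate block, a term for the set, DESeq2 size factors, no filter, only the groups compared, DESeq2 1.42.0, limma voom 3.58.1 and leaving out each library. In data simulated for Double minus NS over 14338 genes, the test recovered 5.97% of 1.5-fold, 29.9% of 2-fold and 87.9% of 4-fold changes.

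Same-numbered Double and NS libraries deviated together (correlations 0.379, 0.438, 0.179 and 0.454), so an alternative fit took the replicate number as a block. The main fit took no pairs. The joint deviation comes from the data and not the labels, and the sets alone can give it. Double 2, 3 and 4 each correlated best with the other NS library of their set (0.469, 0.186 and 0.55). Positions are from GENCODE v29, which matched 33662 of the 35012 symbols. Counting intervals cover counting error only.

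Genes were named by rule: the 15 largest separated changes each way with a mean of at least 2 CPM, up to 4 members with the smallest adjusted p per list, the 5 largest each way beyond both single knockdowns, the 5 largest set differences each way and the 6 most abundant each way. Not all of them are printed, and a few results are not reported here. The members and lists were chosen with earlier results of these data known.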

Additional observations from a re-analysis of the deposited data

Results flagged for a closer look

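In 28 of 320 groups of 4 libraries over the named genes, 1 library lay far from the other 3 (Dixon's ratio above its 95% critical value). For 4 draws from 1 normal distribution this happens in about 1 of 20 groups. The groups here join the unlike replicates 1-2 and 3-4, and many genes were chosen by their values. That rate is therefore no reference for the 28. Double 4 was the highest of its group for ANGPTL4 (83.7 CPM), SERPINA4 (3.89 CPM), HNF4A (427.7 CPM), APOA5 (4.75 CPM), PROX1 (47.0 CPM), CHD4 (271.7 CPM) and C19orf67 (1.37 CPM). Double 3 was the highest for BMP6 (39.6 CPM), TP53I3 (213.3 CPM), BTG2 (108.9 CPM), CD9 (130.0 CPM), C15orf48 (5.93 CPM) and ANXA1 (5.87 CPM), and the lowest for AFP (799.4 CPM), CGN (9.83 CPM) and ALB (1384 CPM). Double 1 was the lowest for AZGP1 (1.48 CPM) and PFN1 (1032 CPM). In the NS group, NS 2 was the lowest for SMARCA4 (296.8 CPM) and SMARCA2 (33.1 CPM). NS 3 was the lowest for ARHGAP31 (0.0 CPM) and the highest for CDH16 (6.46 CPM), APOA5 (26.4 CPM), CYP3A7 (10.4 CPM) and SLC35F1 (0.184 CPM). NS 1 was the highest for MMP14 (22.4 CPM) and TSGA10IP (0.0971 CPM), and NS 4 for IER2 (46.3 CPM).

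The change of Double against NS differed between replicates 1-2 and 3-4, by edgeR's test of the difference, for 22 named genes. The change was higher in 3-4 for ANGPTL4 (adjusted p = 0.00869), ADORA1 (adjusted p = 0.00395), HMOX1 (adjusted p = 0.0114), CDKN1A (adjusted p = 0.0402), MMP2 (adjusted p = 0.00588), ITGA5 (adjusted p = 0.000951), LTBP2 (adjusted p = 0.00412), SLC40A1 (adjusted p = 0.00798), COL6A1 (adjusted p = 0.00083), KRT7 (adjusted p = 0.00117), COMP (adjusted p = 0.00126), SAMD11 (adjusted p = 0.00122), USP49 (adjusted p = 0.00588) and ANXA1 (adjusted p = 0.00223). It was lower in 3-4 for HMGCS1 (adjusted p = 0.00412), SQLE (adjusted p = 0.00122), CYP51A1 (adjusted p = 0.00122), LSM12P1 (adjusted p = 0.00284), POC1B-GALNT4 (adjusted p = 0.00439), AC138811.2 (adjusted p = 0.0277), RSC1A1 (adjusted p = 0.0129) and AL049839.2 (adjusted p = 0.0245).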

How the results depend on the processing

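For Double minus NS the replicate block called 5200 genes and a term for the set 5646, against 3165 without either, and other settings gave 2316 to 3873. Among the 3165 calls, none that was kept under a setting changed sign there, and the signs of lost calls were not counted. Within replicates 1-2 leaving out single libraries gave 2388 to 4954 calls, and within 3-4 it gave 3321 to 5421. The difference between the sets gave 1280 genes with no filter, 943 by DESeq2, of which 58.2% were higher in 3-4 beside 69.2% of the 542, and 160 to 1015 without 1 library. For Double minus BRG1 the block gave 3259 calls, the set term 3728 and leaving out 1 library 934 to 1397, and for Double minus BRM the block gave 5302 and the set term 5718. Same-numbered Double and BRG1 libraries had correlations of 0.445, 0.353, 0.0578 and 0.659. For Double and BRM the correlations of libraries 1 to 3 were 0.589, 0.0133 and 0.365. The labels do not say whether these are pairs. Not every library correlated best with its own number in any of the 3 comparisons. Of 147 named called genes 133 were called under every setting run and none turned sign. The block ended the call of COMP and of no other named gene. HNF4A, which was not called, had changes of −0.20 without Double 4 to 0.18 without NS 3, with −0.03 without NS 2. Of 43 named differences from a single knockdown none turned sign, and of their 625 values under these settings 584 stayed on their side of the threshold. Of 1320 list counts under these settings, 1112 stayed within 1.5 times. The simulation took its spread from the fit without a set term and changed few genes. Its 1.5-fold changes were mostly missed, so genes not called may have changed. Recovery with a set term was not tested. The cause of these shifts was not tested.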
